A study of Homo sapiens with 6 samples.

Results

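The exon junction complex (EJC) and the TREX complex mark spliced mRNA and hand it to the export machinery. The genes described here are 10, chosen by name from the 60664 rows of the count table with earlier results of these data known. They are the EJC core genes EIF4A3, MAGOH, MAGOHB, RBM8A and CASC3, and the export genes THOC2, DDX39B, DDX39A, ALYREF and NXF1. Each name matched 1 Ensembl gene ID, and positions below are those of GENCODE release 29 on GRCh38. All 10 passed the filter on low counts that left 16102 genes for testing, so no member was lost to it.

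RNA was sequenced from HCT-8, a human colorectal cancer cell line, transfected with a plasmid for a short hairpin RNA against PNISR (shPNISR, 3 libraries) or with a control hairpin plasmid (shNC, 3 libraries). PNISR encodes a serine and arginine rich nuclear protein that binds the splicing protein PNN, and the series asks about its part in alternative splicing. The values are read counts per gene, so exons and isoforms were not resolved. The labels name 1 cell line, give no sequence for either hairpin, and name no separate cultures. The p-values therefore describe the spread between these libraries only, which may be technical.

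During splicing the helicase EIF4A3 is clamped onto the exon upstream of a junction, held there by the heterodimer of MAGOH (or its paralog MAGOHB) and RBM8A, also called Y14, and joined by CASC3. TREX joins the mRNA during transcription and splicing: its THO core, built on THOC2, works with the helicase DDX39B (UAP56) or its paralog DDX39A, which loads the adaptor ALYREF. ALYREF passes the mRNA to the export receptor NXF1, which carries it through the nuclear pore. PNN is known to bind the EJC through RNPS1.

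Total counts ranged from 15703210 to 17299847 in shPNISR libraries and from 15049485 to 17977803 in shNC libraries. PNISR averaged 22.3 ± 4.74 CPM in shPNISR and 56.1 ± 6.32 CPM in shNC (SD, n = 3 each; CPM are counts scaled to 1000000 per library with TMM factors), and it fell by 1.33 on the log2 scale (edgeR quasi-likelihood test, Benjamini-Hochberg adjusted p = 8.73e-05). The shNC 2 library stood apart from its group. Its counts differed from those of shNC 1 and shNC 3 by a chi-square of 19.2 and 20.8 per degree of freedom, against 9.66 between shNC 1 and shNC 3. Among shPNISR libraries the same measure was 9.1 to 15.4, highest between shPNISR 2 and shPNISR 3. Results are therefore also given without it. All 7 epithelial markers were detected in every library, with a summed level of 4808 to 6048 CPM in shPNISR and 4335 to 4941 CPM in shNC. The summed levels of 7 fibroblast markers were 25.2 to 29.6 CPM in shPNISR and 16.9 to 25.4 CPM in shNC. Those of 6 leukocyte markers were 4.09 to 5.58 CPM in shPNISR and 3.53 to 4.86 CPM in shNC, and PTPRC and COL1A2 were at 0 in all 6 libraries. Those of 4 endothelial markers were 1.41 to 1.66 CPM in shPNISR and 0.718 to 1.49 CPM in shNC. Single markers differed, and are named here for their values. KRT19, an epithelial keratin, was higher in shPNISR (log2 fold change 0.61 ± 0.15, adjusted p = 0.0365, edgeR). LYZ, a lysozyme of the leukocyte list, was lower, at 1 to 8 counts in shPNISR and 16 to 21 counts in shNC (adjusted p = 0.0337, edgeR). KRT19 passed in 13 of 18 alternative fits, described below, and LYZ in 13 of 17. With all 6 libraries 3.14% of all tested genes passed. Every shPNISR library lay above every shNC library for EPCAM and CD14, which did not pass (adjusted p = 0.103 and 0.176, edgeR). The same held for 11.5% of all tested genes. The part of these markers in the results below was not tested. In bulk RNA, fewer cells expressing a gene and less RNA per cell cannot be told apart.

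None of the 10 genes passed the test with all 6 libraries. By edgeR's quasi-likelihood test, 0 of 10 had an adjusted p under 0.05, against 3.14% of all tested genes, which were 371 higher and 134 lower. DESeq2 and limma voom also called 0 of the 10, against 4.38% and 3.53% of all genes. At an unadjusted p under 0.05, 3 of 10 were lower and 0 higher, against 7.79% and 9.98% of all tested genes, and these 3 were the export genes NXF1, DDX39B and THOC2. Adjusted p over the 10 ran from 0.186 for NXF1 to 0.984 for MAGOHB. The median log2 fold change was -0.11 over the 10 genes, -0.096 over the 5 EJC core genes and -0.26 over the 5 export genes, against -0.013 over all tested genes. Of the 10 genes, 7 had a fitted value below 0, against 52.1% of all tested genes. Both measures moved with single libraries. Without shNC 2 the median was -0.21 over the 10 genes, -0.18 over the EJC core and -0.27 over the export genes, against -0.017 over all tested genes, and 10 of 10 lay below 0, against 52.3%. Leaving out each of the other libraries in turn gave a median over the 10 genes of -0.14 to -0.066, with 6 to 10 of them below 0 (10 without shPNISR 2).

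**Figure D1:**
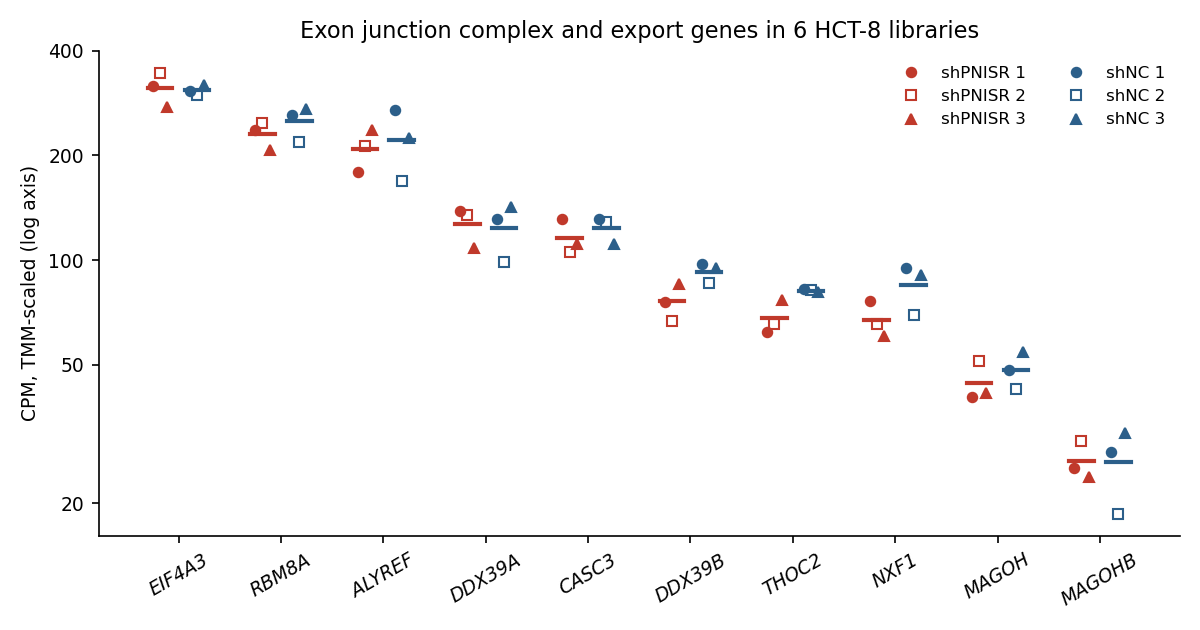
Level of each of the 10 genes in CPM (log axis) in every library, with shPNISR libraries in red on the left and shNC libraries in blue on the right, and horizontal bars for group means (n = 3 each). The groups separate only for DDX39B and THOC2, and the shNC 2 library (open blue square) is the lowest of the 6 for MAGOHB, DDX39A and ALYREF.

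EIF4A3 (ENSG00000141543; chr17:80135214-80147183, minus strand), the RNA-clamping helicase of the EJC, was the most abundant of the 10 by CPM. It had 316, 345 and 275 CPM in shPNISR 1 to 3, against 307, 299 and 320 CPM in shNC 1 to 3. The shPNISR libraries held both the highest and the lowest value, and the groups overlapped. The log2 fold change was 0.016 ± 0.11 (SE, adjusted p = 0.963, edgeR), and its unadjusted 95% interval ran from 0.859 to 1.19 times the shNC level.

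RBM8A (chr1:145917714-145927678, minus strand), partner of MAGOH in the heterodimer, had 236, 247 and 207 CPM in shPNISR, against 261, 218 and 273 CPM in shNC. The groups overlapped through shNC 2, which lay below shPNISR 1 and shPNISR 2. The log2 fold change was -0.12 ± 0.12 (adjusted p = 0.618, interval 0.775 to 1.09 times). On the opposite strand GNRHR2 overlaps 15.4% of the RBM8A exon bases, and its own row held 18 to 36 counts. RBM8A was at -0.22 without shNC 2 (adjusted p = 0.240), at -0.054 without shPNISR 3 and at -0.038 with each library adjusted for GC content and gene length by loess (the GC and length adjustment below). CASC3 (chr17:40140318-40172183, plus strand), the core subunit also known as MLN51 or Barentsz, had 131, 105 and 111 CPM in shPNISR and 132, 129 and 111 CPM in shNC. Its groups overlapped, and its log2 fold change was -0.096 ± 0.12 (adjusted p = 0.709, interval 0.790 to 1.11 times). With 1 library left out, CASC3 ran from -0.19 without shPNISR 1 to -0.038 without shPNISR 2.

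MAGOH (chr1:53226892-53238610, minus strand) and MAGOHB (chr12:10604190-10613623, minus strand) encode nearly identical proteins and can stand in for each other as the partner of RBM8A. MAGOH had 40.4, 51.4 and 41.5 CPM in shPNISR, against 48.2, 42.5 and 54.3 CPM in shNC, with overlapping groups (log2 fold change -0.12 ± 0.13, adjusted p = 0.676, interval 0.757 to 1.12 times). With 1 library left out, MAGOH ran from -0.25 without shPNISR 2 to -0.032 without shNC 3, and it was at -0.21 without shNC 2. MAGOHB had 25.2, 30.3 and 23.8 CPM in shPNISR, against 28.0, 18.6 and 31.9 CPM in shNC. The shNC 2 value was the lowest of the 6, and the other shNC libraries lay within or just above the shPNISR range. Its log2 fold change of 0.012 ± 0.17 (adjusted p = 0.984) became -0.18 without shNC 2 (adjusted p = 0.428). With the GC and length adjustment it was 0.18 (adjusted p = 0.563, edgeR), and 0.048 with shNC 2 also left out (adjusted p = 0.844, edgeR). MAGOHB had the widest spread of the 10 over the 6 libraries, an SD of 0.28 on the log2 CPM scale.

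The paralogs can be told apart at the level of reads only where their bases differ. Over 441 aligned coding bases MAGOHB and MAGOH differ at 59, and the longest identical run is 38 bases. The last 150 coding bases before the stop codon are shown as an example, and they hold 20 of these differences. The sequences are spliced coding sequence from GENCODE release 29 transcripts on GRCh38, and both genes lie on the minus strand, MAGOHB on chromosome 12 and MAGOH on chromosome 1. Positions count from 1 at the first base of the start codon (295 to 444 in MAGOHB and 289 to 438 in MAGOH), and capitals mark bases that differ between the pair.
MAGOHB: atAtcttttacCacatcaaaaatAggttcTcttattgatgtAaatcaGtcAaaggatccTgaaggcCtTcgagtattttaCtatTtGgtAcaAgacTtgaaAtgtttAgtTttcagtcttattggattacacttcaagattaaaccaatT
MAGOH: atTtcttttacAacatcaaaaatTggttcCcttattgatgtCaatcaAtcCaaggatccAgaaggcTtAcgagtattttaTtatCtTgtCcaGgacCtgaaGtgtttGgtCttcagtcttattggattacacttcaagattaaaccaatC

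MAGOHB reads stood at 0.625, 0.589 and 0.574 times MAGOH reads in shPNISR 1 to 3, against 0.582, 0.439 and 0.587 times in shNC 1 to 3. The ratio was nearly level in 5 libraries, and shNC 2 alone was low. The log2 ratio was 0.16 higher in shPNISR on average (p = 0.4 by a two-sided exact permutation test over libraries, which cannot go below 0.1 with 3 libraries a group). Without shNC 2 the difference was 0.027. The rows of the MAGOH copies MAGOH2P and MAGOH3P and of the EIF4A3 copy EIF4A3P1 held 0 counts in all 6 libraries, and RBM8B, a copy of RBM8A, held 2 to 6.

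THOC2 (ENSG00000125676; chrX:123600561-123733056, minus strand), the largest subunit of the THO core, had 62.2, 65.3 and 76.7 CPM in shPNISR, against 82.6, 81.9 and 80.7 CPM in shNC. Every shPNISR library lay below every shNC library, and the shNC values were within 2 CPM of each other. The log2 fold change was -0.26 ± 0.11 (adjusted p = 0.232, edgeR, interval 0.705 to 0.984 times). With the GC and length adjustment it was -0.088 (adjusted p = 0.651), so its distance from 0 shrank by more than 1.5 times. The longest annotated THOC2 transcript has a GC content of 38.3%, the second lowest of the 10 after MAGOHB at 34.6%. THOC2 also has the greatest exon length of the 10, at 10277 bases. The adjustment covers GC content and length together, and the part of each in this shift was not tested.

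DDX39B (ENSG00000198563; chr6:31530219-31542448, minus strand), the helicase that links splicing to export, had 75.8, 67.0 and 85.5 CPM in shPNISR, against 97.2, 86.1 and 94.8 CPM in shNC. The groups did not overlap, but shPNISR 3 and shNC 2 differed by less than 1 CPM. Its log2 fold change was -0.28 ± 0.12 (adjusted p = 0.205, interval 0.692 to 0.973 times), -0.34 without shNC 2 (adjusted p = 0.0704) and -0.26 with the adjustment (adjusted p = 0.187). DDX39B and THOC2 were the only 2 of the 10 whose shPNISR libraries all lay below all shNC libraries, against 9.58% of all tested genes; none of the 10 had them all above, against 11.5%.

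DDX39A (chr19:14408819-14419383, minus strand), the paralog of DDX39B, had 139, 135 and 108 CPM in shPNISR, against 131, 98.8 and 142 CPM in shNC. Both groups spanned a similar range, with shNC 2 lowest. Its log2 fold change was 0.039 ± 0.14 (adjusted p = 0.913, interval 0.843 to 1.25 times). The sign turned without shNC 2 (-0.10), and also without shPNISR 1 or shPNISR 2 and with the GC and length adjustment (-0.086). DDX39A reads stood at 1.83, 2.01 and 1.27 times DDX39B reads in shPNISR, against 1.35, 1.15 and 1.49 times in shNC. The 2 highest ratios were in shPNISR 1 and shPNISR 2, while shPNISR 3 lay inside the shNC range. The log2 ratio was 0.34 higher in shPNISR (p = 0.3 by the same exact permutation test), and between 0.20 and 0.54 higher when 1 library at a time was left out.

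The DDX39 pair is less alike than the MAGOH pair, with 257 differing bases over 1284 aligned coding bases and a longest identical run of 26 bases. The last 150 coding bases, with 33 differences in capitals, are shown for comparison, DDX39A from chromosome 19 (positions 1132 to 1281) and DDX39B from chromosome 6 (positions 1135 to 1284), both on the minus strand.
DDX39A: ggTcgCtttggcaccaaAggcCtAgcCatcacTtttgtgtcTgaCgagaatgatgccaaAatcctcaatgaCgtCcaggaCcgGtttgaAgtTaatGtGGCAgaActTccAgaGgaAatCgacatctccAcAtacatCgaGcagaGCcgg
DDX39B: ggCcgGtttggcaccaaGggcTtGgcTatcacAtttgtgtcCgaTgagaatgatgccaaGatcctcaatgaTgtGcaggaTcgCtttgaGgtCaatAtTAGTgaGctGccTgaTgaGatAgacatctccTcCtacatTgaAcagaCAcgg

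The readthrough gene ATP6V1G2-DDX39B covers 29.7% of the annotated exon bases of DDX39B on the same strand, and its row held 0 counts in all 6 libraries. How reads in the shared exons were assigned is not stated, so the DDX39B level may be incomplete.

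**Figure D2:**
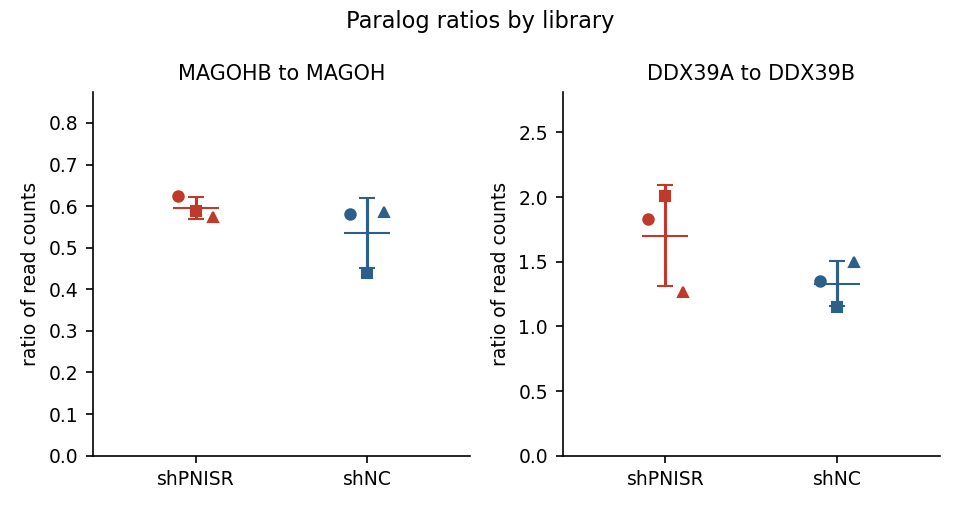
Ratio of read counts of MAGOHB to MAGOH (left) and of DDX39A to DDX39B (right) in each library, shPNISR in red and shNC in blue, with group mean and SD (n = 3 each); circles, squares and triangles are libraries 1, 2 and 3. The groups overlap in both panels, and shNC 2 is lowest in each.

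ALYREF (chr17:81887844-81891586, minus strand), the adaptor between DDX39B and NXF1, was the most variable of the export genes in shNC. It had 179, 212 and 236 CPM in shPNISR, against 270, 169 and 224 CPM in shNC, so shNC held both the highest and the lowest value. The log2 fold change was -0.079 ± 0.15 (adjusted p = 0.830, interval 0.757 to 1.18 times), -0.24 without shNC 2 (adjusted p = 0.240) and 0.089 without shNC 1 (adjusted p = 0.912). With the GC and length adjustment it was -0.24 (adjusted p = 0.582), and -0.42 with shNC 2 also left out (adjusted p = 0.0998). ALYREF shares 62 exon bases with ANAPC11 on the opposite strand, and whether strand was used in the counting is not stated.

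NXF1 (ENSG00000162231; chr11:62792123-62806302, minus strand), the export receptor, had 76.2, 65.4 and 60.5 CPM in shPNISR, against 94.7, 69.3 and 90.8 CPM in shNC. The shNC 1 and shNC 3 values were the 2 highest of the 6, and shNC 2 fell among the shPNISR libraries. With all 6 libraries the log2 fold change was -0.34 ± 0.13 (adjusted p = 0.186, edgeR, interval 0.654 to 0.961 times). Without shNC 2, NXF1 fell by 0.47 on the log2 scale in shPNISR (adjusted p = 0.0149, edgeR). It was the only 1 of the 10 to pass in that fit, against 4.52% of tested genes called lower. With shNC 2 left out and the GC and length adjustment applied, NXF1 (-0.53, adjusted p = 0.00172) and DDX39B (-0.33, adjusted p = 0.0312) were called lower, 2 of 10 against 5.93% of tested genes. Over the 18 alternatives the adjusted p of NXF1 ran from 0.00172 to 0.630, and it passed in these 2. Both left out shNC 2, so they are not separate checks, and the adjustment was run with no other library left out.

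**Figure D3:**
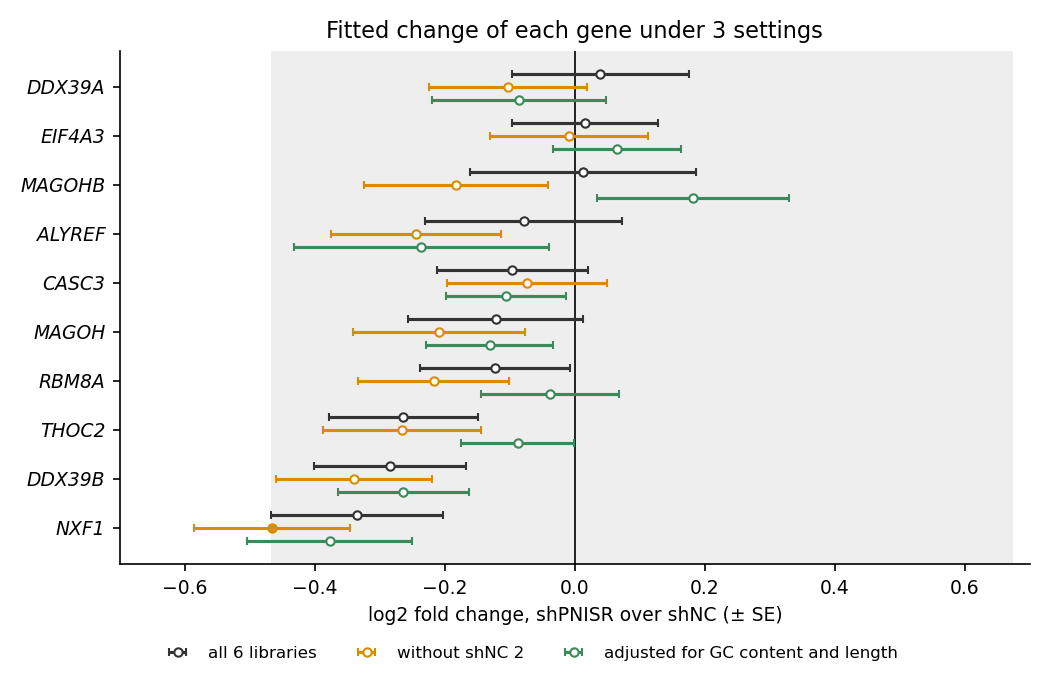
Log2 fold change of shPNISR over shNC (± SE) for each gene with all 6 libraries, without shNC 2, and with the GC and length adjustment. Filled points have an adjusted p under 0.05, and the grey band spans the 5th to 95th percentile of all tested genes (-0.47 to 0.67); only NXF1 without shNC 2 is filled.

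The libraries did not move as 2 blocks. Taking each gene's log2 CPM relative to its own mean over the 6 libraries, the median over the 10 genes was -0.030, 0.023 and -0.14 in shPNISR 1 to 3, against 0.13, -0.12 and 0.18 in shNC 1 to 3. The same median over all tested genes was between 0.002 and 0.014 in every library, and scaling between libraries keeps it near 0. For 9 of the 10 genes the highest library was shNC 1 (5 genes) or shNC 3 (4 genes), with EIF4A3 highest in shPNISR 2. The lowest was shNC 2 for 3 genes (MAGOHB, DDX39A and ALYREF) and an shPNISR library for the other 7. The EJC core genes other than CASC3 were highest in shPNISR 2 among the shPNISR libraries, while THOC2, DDX39B and ALYREF were highest there in shPNISR 3.

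**Figure D4:**
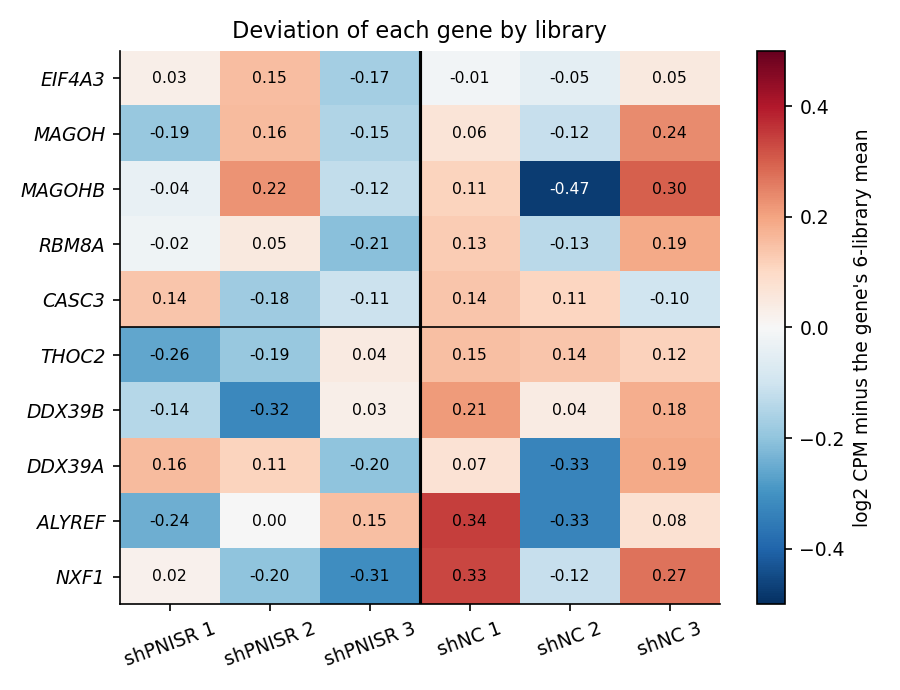
Log2 CPM of each gene minus its mean over the 6 libraries, with genes in rows (EJC core above the line, export genes below) and libraries in columns, shPNISR left of shNC. The column of shNC 2 is blue for 7 of the 10 genes, reaching -0.47 for MAGOHB, while shNC 1 and shNC 3 are red for most genes.

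Levels between genes were compared per kb of annotated exon. In shPNISR the order was ALYREF (133 ± 18.1 CPM per kb), EIF4A3 (62.8 ± 7.06), RBM8A (41.2 ± 3.70), DDX39A (33.1 ± 4.31), MAGOH (30.4 ± 4.16), CASC3 (18.2 ± 2.14), NXF1 (10.9 ± 1.30), DDX39B (10.9 ± 1.32), THOC2 (6.62 ± 0.744) and MAGOHB (5.44 ± 0.700). In shNC DDX39A (32.2 ± 5.82) and MAGOH (33.0 ± 4.06) changed places, and the other 8 kept theirs. Over the 6 libraries the ranges overlapped between DDX39A and MAGOH, between NXF1 and DDX39B, between THOC2 and MAGOHB and, barely, between RBM8A and MAGOH near 37.1 CPM per kb. The other neighbours in this order did not overlap. The order depended on the length used: per kb of the longest APPRIS principal transcript, RBM8A moved to the fifth place and DDX39B to the sixth, while ALYREF, EIF4A3, THOC2 and MAGOHB kept theirs in both groups. The 10 genes have 4 to 21 annotated transcripts each, and every one but MAGOH has at least 1 retained-intron transcript, up to 9 in DDX39A. The counts do not separate these forms.

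The profile of MAGOHB, the gene with the widest spread, was compared over the 6 libraries with 11681 genes of at least 5 CPM, by the root-mean-square distance of centred log2 CPM. The nearest were MRPL47 (0.036), NDUFB3 (0.049), PTS (0.051), SEC11C (0.053) and SELENOS (0.053). Being chosen for a profile like that of MAGOHB, they share its small group difference, so that none passed is not a separate result. Among the other 9 genes here, DDX39A (0.12) and MAGOH (0.16) were nearest and CASC3 (0.34) farthest.

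Of 46 other genes of the same pathways, 42 were tested; 1 was lower, none higher, and 41 did not pass, against 0.832% of tested genes called lower and 2.3% higher. The median log2 fold change of the 42 was -0.067, against -0.013 for all tested genes. Of the 42, 31 lay below 0, against 52.1% of all tested genes. Without shNC 2 the median was -0.15 and 32 lay below 0, against 52.3%. Leaving out each of the other libraries gave medians from -0.13 (without shPNISR 2) to -0.034 (without shNC 3), with 26 to 30 below 0. With the GC and length adjustment the median was -0.039 and 26 lay below 0, against 52.0%. The 1 that passed was NCBP1, the large subunit of the nuclear cap-binding complex, to which ALYREF binds. It had 88.5, 86.6 and 84.9 CPM in shPNISR, against 124, 105 and 119 CPM in shNC, with no overlap. It fell in shPNISR (log2 fold change -0.42 ± 0.11, adjusted p = 0.0387, edgeR). The call ended in 8 of 18 alternatives: with the replicate number as a block (adjusted p = 0.0665), with the GC and length adjustment (0.0814), with both (0.0988), and without any 1 library but shNC 2 (0.0753 to 0.236, the last without shNC 1). Its log2 fold change lay between -0.50 and -0.32 in all 18.

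Among 11 genes of EJC assembly and periphery none passed. RNPS1, which joins the EJC to its ASAP and PSAP partners, averaged 321 ± 17.1 CPM in shPNISR and 334 ± 11.7 CPM in shNC (SD, n = 3 each). ACIN1, the scaffold of ASAP, averaged 281 ± 17.1 CPM in shPNISR and 334 ± 44.2 CPM in shNC (log2 fold change -0.25, adjusted p = 0.279). Without shNC 2 it passed as lower (adjusted p = 0.0462), in a fit that called 4.52% of tested genes lower. ACIN1 passed in 2 of 18 alternatives, and its adjusted p was 0.766 without shNC 1. PNN, given here after its values were seen, had the smallest adjusted p of the 11 (log2 fold change -0.33 ± 0.12, adjusted p = 0.145, edgeR). PNN passed in 2 of 18 alternatives, over which its adjusted p ran from 0.0255 to 0.474. Of the 11 genes, 7 lay below 0, against 52.1% of all tested genes. Of 11 other THO subunits and adaptors 8 were tested and none passed. CHTOP, an export adaptor, averaged 174 ± 7.25 CPM in shPNISR and 191 ± 6.96 CPM in shNC (adjusted p = 0.526), and POLDIP3, also an adaptor, 166 ± 16.3 CPM in shPNISR and 172 ± 15.2 CPM in shNC. ZC3H11A and SARNP, both TREX-associated proteins, had at most 4 and 9 counts per library and were not tested, nor were LUZP4 and NXF3. How reads were counted is not stated, so the rows of ZC3H11A and SARNP may be incomplete.

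None of the 6 TREX-2 genes passed. MCM3AP, the TREX-2 scaffold, averaged 165 ± 22.8 CPM in shPNISR and 171 ± 17.9 CPM in shNC, and SEM1, a small subunit shared with the proteasome, 97.1 ± 18.9 CPM in shPNISR and 84.0 ± 12.2 CPM in shNC. Of the 10 genes of the nuclear pore side of export none passed with all 6 libraries. NUP98 averaged 198 ± 28.7 CPM in shPNISR and 205 ± 25.0 CPM in shNC. NUP153, a nuclear basket protein, had 134, 104 and 132 CPM in shPNISR, against 194, 148 and 155 CPM in shNC (log2 fold change -0.43 ± 0.13, adjusted p = 0.0746), and passed in 4 of 18 alternatives. TPR, the other large basket protein, named after its values were seen, had 62.7, 68.7 and 91.3 CPM in shPNISR, against 102, 104 and 97.3 CPM in shNC (-0.45 ± 0.13, adjusted p = 0.0679), and passed in 5 of 18. Over the 18 alternatives the adjusted p ran from 0.0136 to 0.445 for NUP153 and from 0.0116 to 0.349 for TPR. The groups overlapped for neither basket gene. Of the 42 tested genes, 7 had every shPNISR library below every shNC library and 0 had them all above, against 9.58% and 11.5% of all tested genes.

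**Figure D5:**
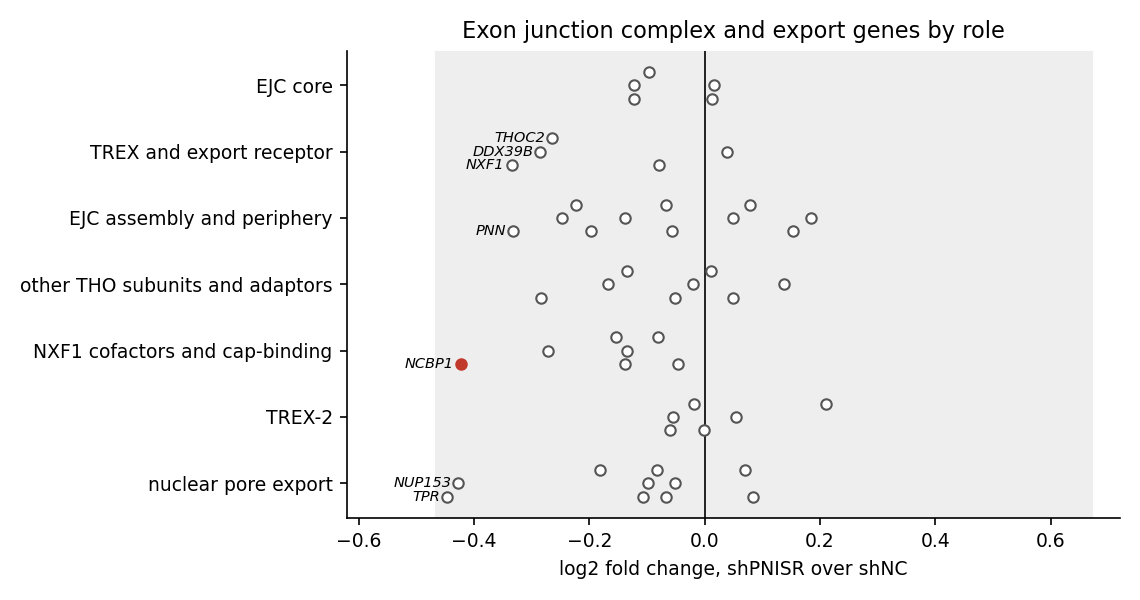
Log2 fold change of shPNISR over shNC for the 10 genes (top 2 rows) and the 42 tested genes of 5 related lists, one point a gene, spread vertically within a row for legibility. The filled point is NCBP1, the only gene of the 52 with an adjusted p under 0.05, and the grey band spans the 5th to 95th percentile of all tested genes.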

How the data were processed

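The authors' deposited table holds whole-number read counts, not normalized, for 60664 Ensembl gene IDs in 6 libraries. HISAT2 2.0.4 and GRCh38 are named, per the submitters' processing notes. How reads were counted, with which annotation and strand rule, is not given in the sources used. Symbols matched 60463 IDs. Genes were filtered with filterByExpr (minimum count 10, total 15), scaled with TMM and tested with edgeR 4.0.16 in R 4.3.3 (robust quasi-likelihood test, two-sided; p-values were adjusted over all tested genes by Benjamini-Hochberg, with a threshold of 0.05). Standard errors were derived from the test statistic. Alternatives used DESeq2 1.42.0 and limma 3.58.1, other scalings and filters, a loess correction for GC content and exon length (span 0.4; values for 99.3% of tested genes), a replicate block and leaving out each library. Lengths, overlaps and coding sequences came from GENCODE release 29, so levels per kb depend on that annotation. The fitting was tested on simulated data with no library set apart from its group, unlike shNC 2 here. Fits that leave out a library were not among those tested. Members and lists were chosen with earlier results of these data known. The rule for named genes took the 10 members, PNISR, the passing genes of each list (up to 4, or the 2 with the highest CPM where none passed) and the 5 nearest profiles to the member with the widest spread.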

Additional observations from a re-analysis of the deposited data

How the results depend on the processing

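No member passed in 16 of the 18 alternatives, and none was called higher in any; leaving out 1 library gave 0 to 1 member called lower, and leaving out shNC 2 with the GC and length adjustment gave 2 (NXF1 -0.53 and DDX39B -0.33). Over all genes, leaving out 1 library gave 133 to 1284 higher and 30 to 746 lower, both extremes coming from leaving out shPNISR 1 and shNC 2. Without a low-count filter 642 were higher and 354 lower, with library totals 71 were lower, with DESeq2 229 were lower, and with the adjustment and without shNC 2 there were 1276 higher and 979 lower. The count of lower genes in the related lists was 1 with all 6 libraries. It became 0 to 6 when 1 library was left out, 3 without a filter and 2 with DESeq2. It was 1 without shPNISR 3 and 2 without shNC 3, and NCBP1 passed in neither, so those calls were of other genes. The count became 0 with the replicate block, 0 with the adjustment, 0 with both, and 7 with the adjustment and without shNC 2. The 6 came without shNC 2, where 4.52% of all tested genes were called lower, against 0.832% with all 6 libraries. The 7 stood against 5.93% of all tested genes. When 1 library was left out, log2 fold changes ran from -0.067 to 0.098 for EIF4A3, -0.25 to -0.032 for MAGOH, -0.22 to -0.054 for RBM8A, -0.19 to -0.038 for CASC3, -0.18 to 0.17 for MAGOHB, -0.10 to 0.14 for DDX39A, -0.24 to 0.089 for ALYREF, -0.47 to -0.25 for NXF1, -0.13 to 0.012 for POLDIP3, -0.15 to 0.038 for MCM3AP and -0.16 to 0.044 for NUP98. DDX39A was at -0.086 with the adjustment, -0.070 with the adjustment and the block and -0.25 with the adjustment and without shNC 2, and NUP98 at 0.015 with the adjustment and 0.013 with the block too. The cause of these shifts was not tested. The log2 difference of the MAGOHB to MAGOH ratio ran from 0.027 to 0.24 when 1 library was left out. The library numbers did not pair the samples: deviations of libraries 1, 2 and 3 of the 2 groups correlated at 0.119, -0.081 and -0.15 across genes. The largest correlation between the groups was 0.307, for shPNISR 2 with shNC 3, and a pairing in another order was not tested. The replicate block gave 390 genes higher and 118 lower with no other call among the genes named here changed besides that of NCBP1. With 3 libraries a group, the unadjusted 95% intervals of the 10 genes lay between 0.654 and 1.30 times the shNC level, and differences inside a gene's interval were not resolved.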
